A study of Mus musculus with 32 samples.

Results

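The genes described are those for the subunits of the receptors for glutamate, GABA and glycine, the main fast transmitters of the brain. They were chosen by the symbol on the array: Gria, Grin, Grik, Grid, Grm, Gabr, Gabbr or Glr followed by a subunit number or letter, which left out 6 similar-looking names of other genes (such as Grina, Glrx and Glrp1). The choice used no measured value. It gave 63 probes for 45 genes, of 25697 probes and 17877 gene names on the array. Of these, 34 probes and 23 genes were detected (detection p below 0.01) on 4 or more of the 32 arrays and were tested among 9475 genes in all.

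AMPA receptors (Gria genes) carry fast excitatory current, and the subunit GluA2, from Gria2, keeps most of them closed to calcium. NMDA receptors (Grin) admit calcium and are a main route of excitotoxic injury in stroke. Kainate receptors (Grik) and delta receptors (Grid) complete the ionotropic glutamate family, and metabotropic receptors (Grm) act through G proteins. GABA-A receptors (Gabr) are chloride channels built mostly from alpha, beta and gamma or delta subunits, GABA-B receptors (Gabbr) signal through G proteins, and glycine receptors (Glra, Glrb) are chloride channels best known from spinal cord and brainstem.

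The RNA was from the right cortex and the right striatum. The mice were labelled Gpx1-/-, strain C57/Bl6, aged 8 to 10 weeks, which by that label lack the hydrogen peroxide-reducing enzyme glutathione peroxidase 1. A suture closed the middle cerebral artery for 2 h and was withdrawn, and tissue was taken after 2, 8 or 24 h of reperfusion. Sham animals had anaesthesia and a neck incision only. Each of the 8 groups (sham, 2 h, 8 h and 24 h in each region) had 4 Illumina MouseRef-8 V2 bead arrays, on which biotin-labelled cRNA binds to probes on beads. All groups carry the same genotype label and no wild-type array was analysed here, so the data do not show what the genotype contributes. One label text speaks of male wild-type mice, against the titles, the genotype label and the treatment text. Nothing says that the arrays of a group came from separate animals, so p-values measure the spread between these arrays.

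On each array 41.6% to 46.4% of probes were detected, and arrays of the same group correlated with r from 0.9564 to 0.9941 (Pearson, over genes, which are not independent replicates). Gpx1 was detected on 32 of 32 arrays, with log2 signals from 8.78 to 10.4, and without a wild-type array this does not check the genotype. The striatal samples held transcripts of hypothalamic peptides. The summed linear signal of 5 hypothalamic markers (Pmch, Hcrt, Oxt, Avp and Trh) was 5356 to 7662 in striatum sham and 240.9 to 425 in cortex sham, and cortex 8 h replicate 2 stood apart from its group at 2471. On striatum 8 h replicate 1, Cbln1, a synaptic organiser abundant in cerebellum and in parts of the thalamus, read 11.92 against 10.00 to 10.08 on the other arrays of that group. Cortex sham had a summed signal of 5698 to 8099 over 6 cortical projection neuron markers against 1184 to 1681 in striatum sham. The regions were closer in 6 striatal projection neuron markers, at 4010 to 4752 in cortex sham and 5188 to 6623 in striatum sham. Nefl, Snap25, Neurod6 and Adora2a, defining markers of neurons or their classes, were detected on 0 arrays through the probes of this platform.

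Detection differed between families. Among the genes tested were 3 of 4 AMPA, 2 of 6 NMDA, 3 of 4 kainate, 3 of 6 metabotropic glutamate, 7 of 18 GABA-A, 1 of 1 GABA-B and 3 of 5 glycine receptor genes. A gene counted as detected where any of its probes was. By this measure 17 genes were detected on all 32 arrays, 6 on 4 to 31 arrays, 3 on 1 or 2 arrays (Gria4, Gabra6 and Grin2b) and 19 on 0 arrays. Among the latter were subunits that are abundant in forebrain, such as Gabra2, Gabra4, Gabra5, Grin2a, Grik2 and Grm3, so a probe that was not detected is no measure of the transcript here. Also on 0 arrays were Gabre, Gabrg3, Gabrp, Gabrq, Gabrr1, Gabrr2, Glra3, Glra4, Grin2d, Grin3b, Grm4 and Grm6. Gabrg1, Glra1, Grik4, Grin1 and Grin2c were among the 6 genes detected on only part of the arrays.

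Striatum and cortex of sham mice were compared first, since they give the levels from which the injured tissue started. In striatum 6 of the 23 receptor genes were higher and 4 lower than in cortex, while 34% of all 9475 genes were called in this comparison. Among the 6 was Glra1, which was tested only because striatal arrays detected it. The AMPA genes Gria2 and Gria3 and the kainate gene Grik5 were among those lower in striatum. Glycine receptor genes Glra1 and Glra2, the GABA-A gene Gabrg1, the kainate gene Grik1 and the GABA-B gene Gabbr1 were among those higher. The regions carry different array codes, read here as slides although no label says so, and array code and region cannot be told apart in this comparison.

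Glra1, the adult alpha subunit of spinal glycine receptors, read 6.36, 6.44, 7.10 and 5.99 (log2 signal, replicates 1 to 4) in striatum sham. In cortex sham it read 4.45, 4.53, 4.45 and 4.46 and was detected on 0 of 4 arrays. Striatum was at least 1.62-fold higher, a bound computed against the lowest detected signal of each array. The bound was not tested and carries no adjusted p. Gabrg1, a gamma subunit concentrated in a few deep brain nuclei, read 7.41, 6.60, 7.23 and 6.88 in striatum sham and 5.92, 5.74, 5.74 and 5.70 in cortex sham, where 1 of 4 arrays detected it. Its fitted difference was 1.26 ± 0.17 (log2, SE, n = 4 arrays per group), or 2.39-fold, and rests in part on background. Glra1 passed the detection filter only through striatum, which held all 9 arrays that detected it, and Gabrg1 passed mainly through striatum. Both were higher there, so a difference between regions goes with their being tested at all. The call of Glra1 between regions is therefore no support for a difference. Cortex 8 h replicate 2, the cortical array with hypothalamic transcripts, read 4.45 for Glra1 and 5.70 for Gabrg1 and detected neither.

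Glra2, the glycine receptor alpha subunit that prevails in developing brain, read 9.52 to 9.80 in striatum sham and 8.83 to 9.06 in cortex sham, a limma difference of 0.76 ± 0.15 (adjusted p = 0.000298). The groups did not overlap. Gabbr1, the ligand-binding GABA-B subunit, was higher by 0.35 ± 0.12 (adjusted p = 0.0245), a call lost without cortex sham replicate 3 (0.0534) or 4 (0.0539), without striatum sham replicate 1 (0.0596) or 4 (0.0875), and with scaling to the 75th percentile (0.0529). Grik1, a kainate subunit that forms channels on its own, was higher by 0.38 ± 0.13 (adjusted p = 0.0279), with overlapping groups. That call was lost without cortex sham replicate 3 (0.0589) or 4 (0.0946) and without striatum sham replicate 1 (0.0884) or 3 (0.0971). The hypothalamic signal given above moved with these genes between the sham regions, and its part in the differences was not tested.

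Gria2 read 12.02, 12.31, 11.91 and 12.08 in cortex sham and 11.22, 11.18, 11.25 and 11.20 in striatum sham. It was 1.82-fold lower in striatum (-0.87 ± 0.12, adjusted p = 2.36e-06), and its other probe gave -0.91 (adjusted p = 3.09e-05 over all detected probes). Gria3, another AMPA subunit, was lower by 0.84 ± 0.15 on the log2 scale (adjusted p = 6.29e-05), and its 2 other probes gave -1.23 and -1.17. These 2 values rest in part on background, since the probes were detected on 2 and 1 of 4 striatum sham arrays. Gria1 did not pass on its brightest probe (-0.26 ± 0.14, adjusted p = 0.149) except with array weights (0.038), but did on another (-0.42, adjusted p = 0.0415). Grik5, a kainate subunit that needs a partner subunit to form channels, read 8.64 to 8.82 against 7.90 to 8.19 (-0.66 ± 0.13, adjusted p = 0.000188). For Gria2, Gria3 and Grik5 every striatal array lay below every cortical one, and the levels are plotted by gene.

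**Figure D1:**
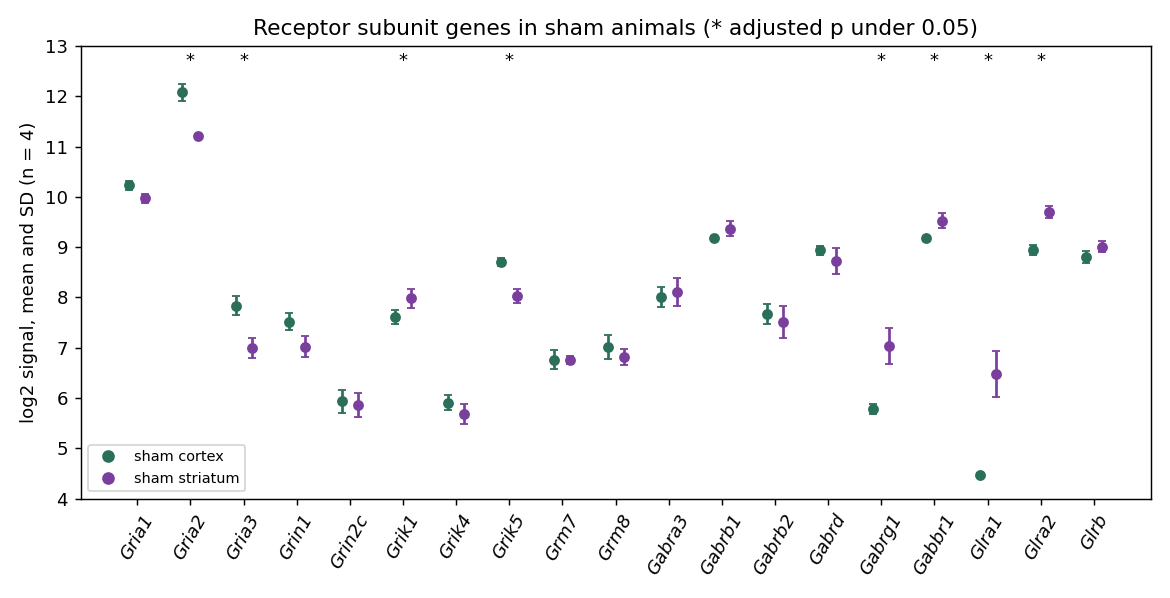
Log2 signal of tested receptor genes in sham cortex (green) and sham striatum (purple); points are means and bars are SDs over 4 arrays, and asterisks mark an adjusted p under 0.05. Signals compare the regions within a gene and not one gene with another, because each probe has its own brightness. The cortical signals of Glra1, at 4.45 to 4.53, were below detection, and its asterisk goes with its passing the filter only through striatum.

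Each reperfusion time was then compared with the sham group of its region, to follow the receptor genes through the hours after blood flow returned. Most calls were decreases, and most came late. In cortex 0 of 23 genes were called at 2 h, 3 were lower and 0 higher at 8 h, and 6 were lower and 0 higher at 24 h. In striatum 1 was lower and 1 higher at 2 h, 4 were lower and 0 higher at 8 h, and 10 were lower and 0 higher at 24 h. Of all 9475 genes, 4.65% were called in cortex at 2 h, 20.2% at 8 h and 33.3% at 24 h. In striatum the shares were 6.3%, 25.2% and 30.9%. Split by direction, cortex had 2.45% lower and 2.21% higher at 2 h, 10.6% lower and 9.58% higher at 8 h, and 17.6% lower and 15.7% higher at 24 h. Striatum had 2.81% lower and 3.49% higher at 2 h, 12.8% lower and 12.4% higher at 8 h, and 16.2% lower and 14.7% higher at 24 h. With the authors' deposited ratios, which were not rescaled here, the receptor calls in striatum at 2 h were 0 higher and 2 lower, and the median of all genes itself lay at -0.09 to -0.18 in the 6 comparisons. The receptor genes called lower at 24 h were 26.1% of those tested in cortex and 43.5% in striatum. At 8 h the 3 and 4 genes called lower were a share near that of all genes.

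The striatal count at 24 h rested on individual arrays. It was 4 without striatum 24 h replicate 2, which read lowest of its group for 17 of the 23 genes, and 6 without striatum sham replicate 2 or 3. The cortical count at 24 h was 4 to 8 when 1 array was left out, with 4 without cortex sham replicate 2 or cortex 24 h replicate 4 and 8 without cortex 24 h replicate 1. At 8 h the cortical count was 2 to 4. The striatal count at 8 h was 1 without striatum sham replicate 1 or striatum 8 h replicate 3 and 2 without sham replicate 3. At 2 h it was 1 without any 1 of sham replicates 1, 2 and 3 or 2 h replicates 1, 2 and 3.

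The median log2 difference of the 23 genes from sham in cortex was -0.02 at 2 h, -0.22 at 8 h and -0.23 at 24 h. In striatum it was -0.06, -0.21 and -0.37. The medians of all genes were -0.01, -0.01 and -0.01 in cortex and 0.00, -0.01 and -0.03 in striatum. Below 0 were 13, 18 and 16 of the 23 genes in cortex and 14, 19 and 21 in striatum. By array code, that is each reperfusion array against the sham array with its number, the receptor median was -0.34 to -0.15 at 8 h and -0.40 to -0.20 at 24 h in striatum. In cortex it was -0.43 to 0.03 at 8 h and -0.53 to 0.12 at 24 h, with the positive values on 8 h replicate 4 and 24 h replicate 1. On that 24 h array the astrocyte marker Gfap read 8.34 and the neutrophil and monocyte marker Lcn2 8.07. The other arrays of its group read 9.62 to 9.92 and 10.12 to 11.42, and cortex sham 8.00 to 8.62 and 6.25 to 7.74. Other markers of the same lists were mixed on that array. Aldh1l1 (8.34), Slc1a3 (12.95) and Ly6c1 (9.58) lay above cortex sham (7.71 to 8.17, 12.74 to 12.86 and 9.12 to 9.37). Aldoc, Aqp4 and Gja1 lay below the sham arrays, and Lyz2, S100a8 and S100a9 within their range. The microglial marker Siglech, at 6.38, was below sham (7.45 to 7.54) there, as on the other 24 h arrays. The part of injury extent was not tested. In bulk tissue, fewer cells of a type and less RNA per cell cannot be told apart.

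Summed signals of neuronal markers were lower at 24 h in both regions, though not every marker fell. The summed signal of 7 pan-neuronal markers was 39100 to 41890 in cortex sham, 34210 to 38100 at 8 h and 30990 to 36430 at 24 h. In striatum it was 27830 to 29500 in sham, 26820 to 30080 at 8 h, where 2 of the 7 genes were called higher and 1 lower, and 23530 to 27170 at 24 h, without overlap in either region at 24 h. Of these 7 genes 4 were called lower in cortex and 3 in striatum at 24 h, and 0 higher. Eno2, not called, went the other way. It read 12.808 to 12.863 in cortex sham and 12.939 to 13.225 at 24 h, and 12.54 to 12.787 and 12.74 to 12.928 in striatum. Rbfox3 did not fall either. Its signals were 12.39 to 12.615 in cortex sham and 12.48 to 12.74 at 24 h, and 11.069 to 11.568 and 11.283 to 11.613 in striatum. Cortical projection neuron markers summed to 3472 to 5175 in cortex at 24 h, below sham, with 4 of 6 genes called lower. Striatal projection neuron markers summed to 2043 to 5175 in striatum at 24 h against 5188 to 6623 in sham, also with 4 of 6 called lower. The sums of 6 GABAergic interneuron markers were 17740 to 18910 in cortex sham and 13960 to 16570 at 24 h. In striatum they were 15240 to 20040 and 13290 to 15610, with overlap. Other cell types moved as well at 24 h. The sums of 2 blood markers were uneven, at 180.1 to 482.4 in cortex sham and 296.5 to 13640 at 24 h. In striatum they were 187.8 to 2050 and 398.1 to 12020. Of 5 neutrophil and monocyte markers, 5 were called higher in each region, with sums of 1326 to 9777 in cortex (896.3 to 1347 in sham) and 3153 to 8412 in striatum (1209 to 1475 in sham). Of 4 endothelial markers, 3 were called higher and 0 lower in each region. Of 7 microglial markers, 5 were called lower and 1 higher in cortex, and 5 lower and 2 higher in striatum. Of 6 astrocyte markers, 2 were higher and 1 lower in cortex and 1 higher and 2 lower in striatum, with sums of 21000 to 22900 against 22180 to 24340 in cortex sham and 21760 to 24470 against 24080 to 27310 in striatum sham. The part of cell content in the receptor differences was not tested.

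**Figure D2:**
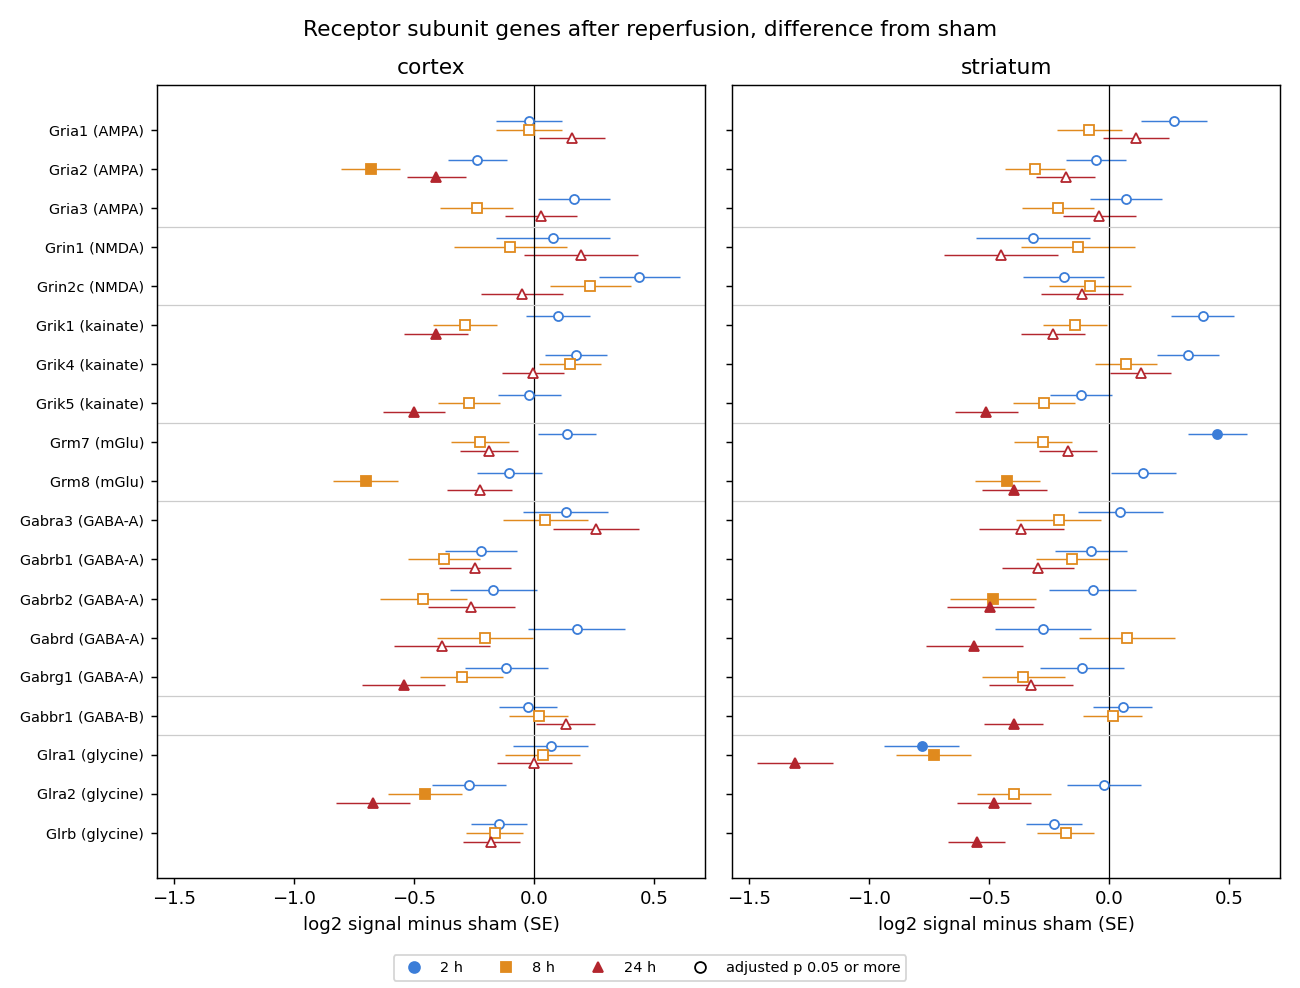
Log2 difference from the sham group of the same region for tested receptor genes at 2 h (circles), 8 h (squares) and 24 h (triangles) of reperfusion; bars are SEs, filled symbols have an adjusted p under 0.05, and grey lines part the receptor families. Filled symbols lie left of 0 except Grm7 in striatum at 2 h, and Glra1 in striatum at 24 h is a fitted value against arrays that did not detect it.

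Of 3 AMPA receptor genes, 1 fell in cortex at 8 h and at 24 h, and 0 were called in striatum. In cortex Gria2 read 11.40, 11.33, 11.32 and 11.55 at 8 h, all below the sham arrays given above. It was 1.60-fold lower (-0.68 ± 0.12, adjusted p = 0.000564), and its other probe gave -0.52 (adjusted p = 0.0195). This was the AMPA subunit that limits calcium entry. At 24 h Gria2 read 12.07, 11.12, 11.77 and 11.73, so replicate 1 lay within the sham range and replicate 2 far below it. The difference at 24 h was -0.41 ± 0.12 (adjusted p = 0.0125), on 3 of 4 slides. It was lost without cortex sham replicate 2 (0.0617) or cortex 24 h replicate 2 (0.1) and with each region fitted alone (0.0506), and the other probe gave -0.16 (adjusted p = 0.468). In striatum the largest difference of Gria2 was -0.31 ± 0.12 at 8 h (adjusted p = 0.0654). It passed there with array weights (0.0104), with each region fitted alone (0.0159), with the deposited ratios (0.00276) and without cortex 24 h replicate 1 (0.037) or 2 (0.0135). On their brightest probes Gria1 and Gria3 were not called against sham at any time, with differences from -0.24 to 0.27. That range does not cover their other probes. Gria1 probe 4830670, for example, read 9.04 to 9.26 in cortex sham and 9.28 to 9.64 at 2 h.

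The promoters of 3 genes are shown, Gria2 as the called AMPA gene and Grik5 and Glra2 because they were the 2 genes lower in both regions at 24 h. They run from 250 bases before to 50 after the start of transcription in RefSeq for the mouse build GRCm38.p6, on the minus strand in each case, at chr3:80802786-80803085 for Gria2, chr7:25072320-25072619 for Grik5 and chrX:165327344-165327643 for Glra2. Capitals mark the letters of a GC box (GGGCGG) or TATA box (TATAAA), searched on both strands.
Gria2: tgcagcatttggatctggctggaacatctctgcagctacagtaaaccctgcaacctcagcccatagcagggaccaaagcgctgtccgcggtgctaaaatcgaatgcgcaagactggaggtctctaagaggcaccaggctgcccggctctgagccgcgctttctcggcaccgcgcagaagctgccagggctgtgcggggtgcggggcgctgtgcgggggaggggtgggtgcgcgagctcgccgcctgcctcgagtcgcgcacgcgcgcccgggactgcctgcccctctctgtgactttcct
Grik5: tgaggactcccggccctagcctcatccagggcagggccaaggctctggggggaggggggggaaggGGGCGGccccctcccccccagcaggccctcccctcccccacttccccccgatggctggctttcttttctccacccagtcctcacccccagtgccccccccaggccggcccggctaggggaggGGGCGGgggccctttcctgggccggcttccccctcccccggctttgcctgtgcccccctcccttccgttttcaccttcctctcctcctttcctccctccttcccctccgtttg
Glra2: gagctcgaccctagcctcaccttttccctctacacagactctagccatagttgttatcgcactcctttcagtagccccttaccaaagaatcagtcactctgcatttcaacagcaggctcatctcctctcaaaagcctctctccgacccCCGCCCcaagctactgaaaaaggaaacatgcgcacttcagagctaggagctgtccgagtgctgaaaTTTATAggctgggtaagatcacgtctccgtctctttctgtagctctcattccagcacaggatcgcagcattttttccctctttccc
The Gria2 window held neither motif and had a GC content of 65.7%. The Grik5 window held 2 GC boxes at a GC content of 72.0%, and the Glra2 window held 1 GC box, read on the opposite strand, and 1 TATA box, also on the opposite strand, at 50.3%. In the table used, 14 of the tested receptor genes had 21 promoters. A GC box was found in 11 of these 21 (52.4%) and in 35.7% of all 32851 promoters of the same length, and a TATA box in 4 (19.0%) against 13.6%. A CCAAT motif was found in 6 (28.6%) against 37.4%. These letter matches are a description, not binding sites.

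Of 2 NMDA receptor genes tested, 0 were called in any comparison with sham on their brightest probes. Grin1 encodes the subunit that every NMDA receptor needs, and its 2 detected probes disagreed. Probe 4570161, the brighter, read 7.39 to 7.77 in cortex sham and 8.28, 7.52, 7.17 and 7.87 at 24 h, a difference of 0.19 ± 0.24 (adjusted p = 0.565). Probe 4210041 read 6.89, 7.11, 7.02 and 7.34 in cortex sham, 6.17, 6.54, 6.74 and 6.59 at 8 h and 6.52, 6.03, 6.25 and 5.86 at 24 h. On this probe neither reperfusion group overlapped sham, with -0.58 at 8 h (adjusted p = 0.0068) and -0.92 at 24 h (3.55e-05), adjusted over all detected probes. In striatum it was detected on 3 of 4 sham arrays and 0 of 4 at 24 h, so no difference is given. The direction of Grin1 in cortex at 24 h therefore depends on the probe. Grin2c, a subunit found in cerebellum and in some astrocytes and interneurons, had the largest difference of any receptor gene in cortex at 2 h, 0.44 ± 0.17 (adjusted p = 0.125). It passed there with array weights (0.0366). The brighter Grin1 probe stood at -0.45 in striatum at 24 h (adjusted p = 0.153) and passed with the deposited ratios (0.0449).

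**Figure D3:**
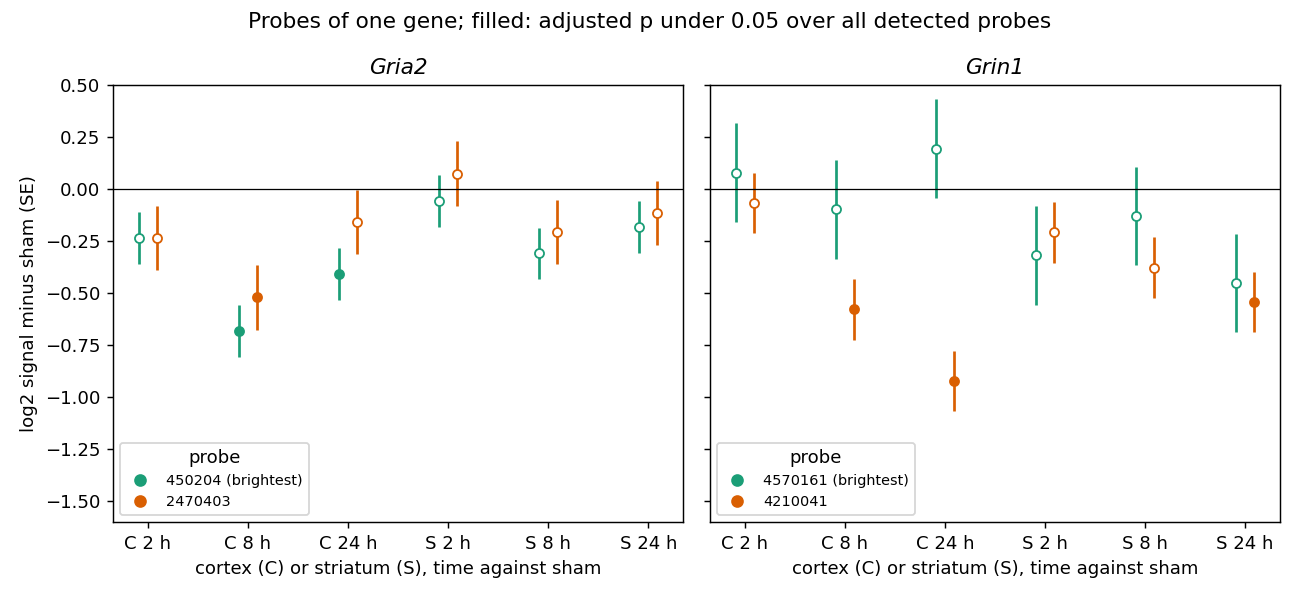
Log2 difference from sham (points, with SE bars) for each detected probe of Gria2 and of Grin1 in cortex (C) and striatum (S) at 2, 8 and 24 h; filled points have an adjusted p under 0.05 over all detected probes. Both Gria2 probes are filled in cortex at 8 h, while for Grin1 probe 4210041 is filled in cortex at 8 and 24 h and the brighter probe in none. The filled point of 4210041 in striatum at 24 h is a fitted value against arrays that did not detect it.

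Of 3 kainate receptor genes, 2 fell in cortex and 1 in striatum, all at 24 h. Grik5 read 8.42, 8.39, 7.92 and 8.08 in cortex at 24 h, below all sham arrays, a difference of -0.50 ± 0.13 (1.41-fold lower, adjusted p = 0.00444). In striatum it read 7.90, 8.19, 8.12 and 7.94 in sham and 7.65, 7.18, 7.52 and 7.74 at 24 h, a difference of -0.51 ± 0.13 (1.43-fold lower, adjusted p = 0.00373). Both held with each 1 array left out and under every alternative run, and the 24 h and sham groups did not overlap in either region. Grik1 read 7.41, 7.36, 7.05 and 6.95 in cortex at 24 h against 7.66, 7.75, 7.57 and 7.43 in sham, a difference of -0.41 ± 0.13 (adjusted p = 0.0183). It was lost without cortex sham replicate 2 (0.064) or cortex 24 h replicate 3 (0.058) or 4 (0.0834). In striatum Grik1 stood at 0.39 ± 0.13 at 2 h, which did not pass (adjusted p = 0.0741) except with the slide as a replicate block (0.0161), with array weights (0.017) and without striatum 2 h replicate 4 (0.041). Grik4 was not called against sham at any time, its largest difference being 0.33 in striatum at 2 h (adjusted p = 0.116). That difference passed with array weights (0.0095), and it rests in part on background, since 2 of 4 striatum sham arrays detected Grik4.

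Of 3 metabotropic glutamate receptor genes, 1 fell in cortex at 8 h and 0 were called there at 24 h. In striatum 1 rose at 2 h, and 2 fell at 8 h and 2 at 24 h. Grm8, a presynaptic receptor that lowers transmitter release, fell in both regions at 8 h. In cortex it read 7.19, 7.0, 6.70 and 7.17 in sham, 6.95, 6.94, 6.84 and 6.92 at 2 h, 6.43, 6.24, 6.20 and 6.38 at 8 h and 7.16, 6.47, 6.87 and 6.65 at 24 h. All 4 arrays at 8 h lay below every sham and 2 h array, and the difference from sham was -0.70 ± 0.14 (1.63-fold lower, adjusted p = 0.000943). At 24 h the cortical difference was -0.23 and not called. The rise from 8 to 24 h was called (0.48 ± 0.14, adjusted p = 0.0289), but not without cortex 8 h replicate 2 (0.0598) or 3 (0.0861) or cortex 24 h replicate 1 (0.0897) or 3 (0.0772).

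In striatum Grm8 read 6.99, 6.61, 6.90 and 6.79 in sham, 6.34, 6.45, 6.21 and 6.59 at 8 h and 6.18, 6.43, 6.86 and 6.24 at 24 h. At 8 h, when the groups did not overlap, the difference was -0.42 ± 0.14 (adjusted p = 0.0223), lost without striatum sham replicate 1 (0.0807) or 3 (0.0604) or striatum 8 h replicate 3 (0.0822). At 24 h it was -0.40 ± 0.14 (adjusted p = 0.0262), with replicate 3 inside the sham range. That call was lost without striatum sham replicate 1 (0.0897) or 3 (0.0671), without striatum 24 h replicate 1 (0.0984), 2 (0.053) or 4 (0.0872), and with scaling to the 75th percentile (0.063).

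Grm7, another presynaptic release-limiting receptor, was the 1 receptor gene that rose against sham. In striatum it read 6.82, 6.79, 6.65 and 6.75 in sham, 7.17, 7.22, 7.24 and 7.19 at 2 h, 6.32, 6.50, 6.42 and 6.67 at 8 h and 6.77, 6.39, 6.61 and 6.56 at 24 h. The 2 h arrays stood above every other striatal array. The rise from sham was 0.45 ± 0.12 (1.37-fold, adjusted p = 0.0264), and it was lost without sham replicate 1 (0.0581), 2 (0.0631) or 3 (0.0839), without 2 h replicate 1 (0.0621), 2 (0.058) or 3 (0.068), and with the authors' deposited ratios (0.0602). The step down from 2 to 8 h was -0.73 ± 0.12 (1.66-fold lower, adjusted p = 0.00205), which held with each 1 array left out and under every alternative run.

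**Figure D4:**
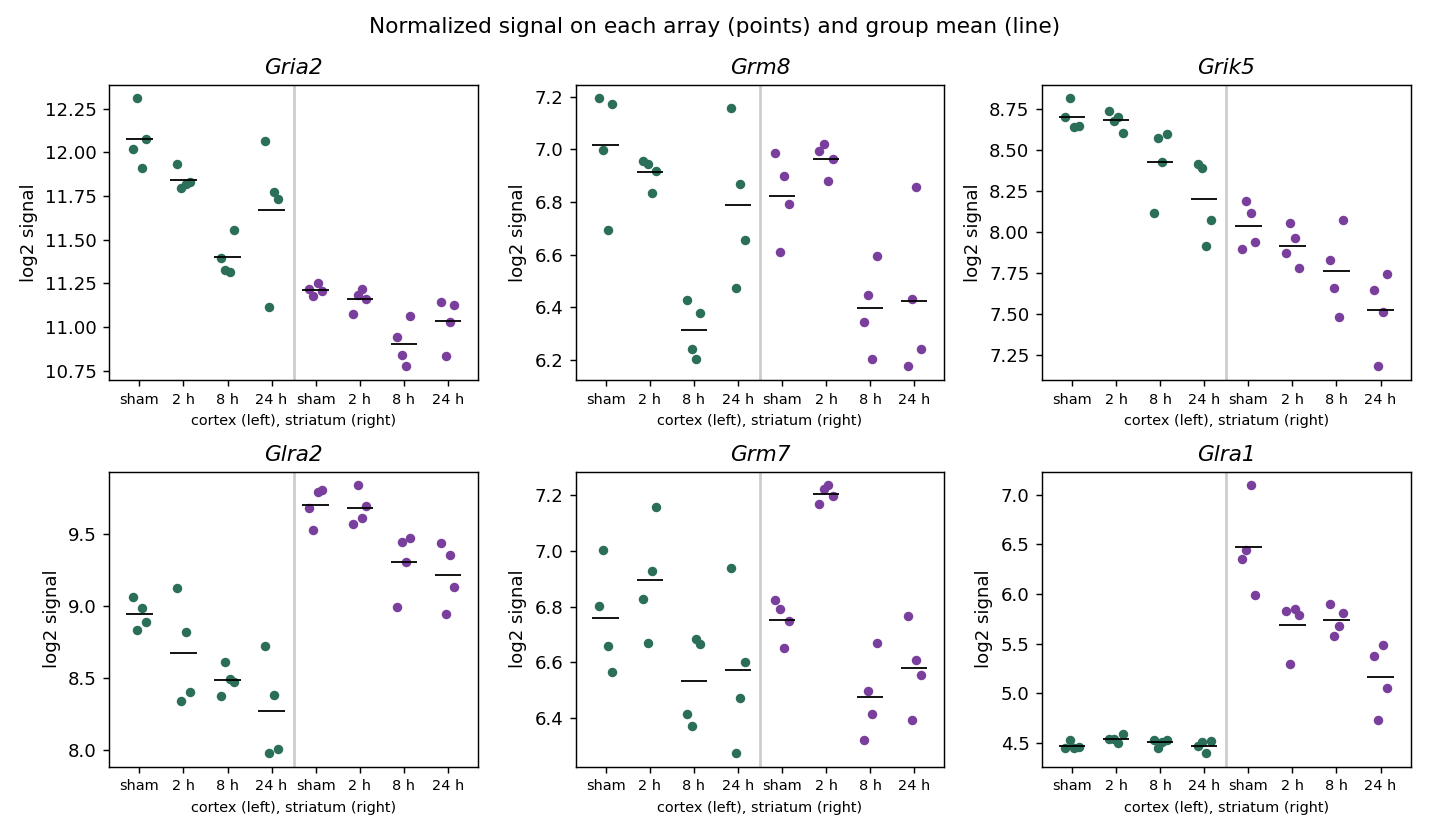
Log2 signal of 6 receptor genes on every array, cortex in green on the left and striatum in purple on the right of each panel, from sham to 24 h; points are arrays and black lines are group means. Gria2 and Grm8 are lowest in cortex at 8 h, Grm7 is highest in striatum at 2 h, Grik5 and Glra2 are lower at 24 h in both regions, and Glra1 stays between 4.40 and 4.59 in cortex.

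Of 7 GABA-A receptor genes, 2 were called lower in cortex at 24 h, and in striatum 1 fell at 8 h and 2 at 24 h. Gabrg1 in cortex was near background, detected on 1 of 4 sham and 0 of 4 arrays at 24 h. Its fitted signals were called lower (limma, adjusted p = 0.0172). Against the lowest detected signal of each array it was only at least 1.02-fold lower, a bound that was not tested. The call was lost without cortex sham replicate 1 (0.0519) or cortex 24 h replicate 4 (0.085), with scaling to the 75th percentile (0.0508) and without background correction (0.0545).

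In striatum Gabrb2, the beta subunit of the commonest GABA-A receptors, read 7.63, 7.65, 7.74 and 7.05 in sham, 6.97, 7.23, 7.04 and 6.88 at 8 h and 7.23, 6.65, 7.23 and 6.98 at 24 h. Sham replicate 4 stood below its group and inside the range of both later groups. The difference was -0.48 ± 0.18 at 8 h (adjusted p = 0.0485), a call lost in 19 of 32 fits that left out 1 array (up to 0.141, without sham replicate 3). It was also lost with the slide as a replicate block (0.0514), with no detection filter (0.0837) and with all detected probes (0.0515). At 24 h the difference was -0.50 ± 0.18 (adjusted p = 0.0367), lost without sham replicate 1 (0.0914), 2 (0.0936) or 3 (0.114), without 24 h replicate 2 (0.158) or 4 (0.07), and with no detection filter (0.0648).

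Gabrd encodes the delta subunit of receptors outside synapses, which carry tonic current. In striatum it read 8.46, 9.08, 8.70 and 8.66 in sham and 8.39, 7.78, 7.93 and 8.55 at 24 h, with overlap, a difference of -0.56 ± 0.20 (adjusted p = 0.0332). Its other probe gave -0.63 (adjusted p = 0.013). The call was lost without sham replicate 2 (0.126) or 3 (0.058), without 24 h replicate 2 (0.142) or 3 (0.0978), with no detection filter (0.0608) and with each region fitted alone (0.0636). At 8 h its striatal arrays spread widely, at 9.21, 8.57, 8.18 and 9.24.

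Gabra3 and Gabrb1 were not called against sham at any time, with Gabrb1 at -0.38 in cortex at 8 h (adjusted p = 0.0741) and Gabra3 at -0.37 in striatum at 24 h (0.12). Gabrb1 passed there with the deposited ratios (0.0118) and without striatum 24 h replicate 1 (0.0452), as did Gabra3 (0.00783 and 0.0174). Gabrb2 in cortex stood at -0.46 at 8 h (adjusted p = 0.0694). It passed with the deposited ratios (0.0194) and without cortex 8 h replicate 4 (0.04) or cortex 24 h replicate 2 (0.0339).

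The GABA-B receptor gene Gabbr1 fell in striatum at 24 h. It read 9.58, 9.38, 9.45 and 9.71 in sham, 9.50, 9.59, 9.52 and 9.56 at 8 h and 9.39, 9.04, 9.13 and 8.96 at 24 h. Replicate 1 at 24 h lay just inside the sham range and the other arrays below it. The difference from sham was -0.40 ± 0.12 (1.32-fold lower, adjusted p = 0.0137), lost without 24 h replicate 4 (0.0509). In cortex Gabbr1 was not called and its differences were -0.02 to 0.13.

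All 3 glycine receptor genes tested fell in striatum at 24 h. Glra1 read 5.83, 5.30, 5.85 and 5.79 at 2 h, 5.90, 5.58, 5.67 and 5.81 at 8 h and 5.37, 4.73, 5.49 and 5.05 at 24 h in striatum, every array below the lowest sham array (5.99). It was detected on 4, 3, 2 and 0 of 4 arrays in sham, at 2, 8 and 24 h. The differences were -0.78 ± 0.16 at 2 h (adjusted p = 0.00549) and -0.73 ± 0.16 at 8 h (0.00135), both resting in part on background. At 24 h the fitted signals of Glra1 were called lower (adjusted p = 1.20e-06), with an untested bound of at least 1.64-fold. These calls held with each 1 array left out and under every alternative run. The summed hypothalamic signal overlapped with sham (5356 to 7662) at 2 h (6742 to 7466), 8 h (5073 to 7645) and 24 h (5452 to 8809). Cbln1, the 1 marker of cerebellum and hindbrain that passed the filter, had a linear signal of 910.7 to 1876 in sham and 790.5 to 1253 at 24 h. Its highest sham array was replicate 3, at 10.87 on the log2 scale, which was also the highest for Glra1 (7.10). Gabra6, a cerebellar GABA-A subunit on the same marker list, read 4.46, 5.34, 6.52 and 4.46 in sham, 6.48 on replicate 1 at 8 h and 4.40 to 4.46 at 24 h, and was detected on 1 sham array and 1 array at 8 h. Without sham replicate 3 the differences of Glra1 were -0.57 at 2 h (adjusted p = 0.0281) and -0.52 at 8 h (0.00958). The part of tissue sampled was not tested.

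Glra2 fell in both regions. In cortex it read 9.06, 8.83, 8.98 and 8.88 in sham, 9.12, 8.33, 8.82 and 8.40 at 2 h, 8.38, 8.61, 8.49 and 8.47 at 8 h and 8.72, 7.98, 8.38 and 8.01 at 24 h. From 8 h all arrays lay below sham. The difference was -0.45 ± 0.15 at 8 h (adjusted p = 0.0369) and -0.67 ± 0.15 at 24 h (1.59-fold lower, adjusted p = 0.00164). The call at 8 h was lost without any 1 sham array (0.0545 to 0.095), without 8 h replicate 1 (0.0845), 3 (0.0741) or 4 (0.0582), with no detection filter (0.063) and with each region fitted alone (0.0804), whereas that at 24 h held throughout.

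In striatum Glra2 read 9.68, 9.52, 9.79 and 9.80 in sham, 8.99, 9.44, 9.30 and 9.47 at 8 h and 9.44, 8.94, 9.35 and 9.13 at 24 h. The later groups lay below sham without overlap. The difference at 24 h was -0.48 ± 0.15 (adjusted p = 0.0183), lost without 24 h replicate 2 (0.0839), and that at 8 h did not pass (-0.40 ± 0.15, adjusted p = 0.0594). It passed at 8 h with the slide as a replicate block (0.04), without background correction (0.0419), with the deposited ratios (0.00379), with each region fitted alone (0.0297), and without cortex 2 h replicate 1 (0.0406) or cortex 24 h replicate 1 (0.0375). Glrb, the beta subunit that ties glycine receptors to gephyrin, read 9.16, 8.94, 9.03 and 8.92 in striatum sham and 8.55, 8.32, 8.58 and 8.38 at 24 h. Its difference of -0.55 ± 0.12 (1.47-fold lower, adjusted p = 0.000786) held with each 1 array left out, and the groups did not overlap.

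Successive times were compared within each region to place these decreases. From 2 to 8 h, 3 receptor genes were lower in cortex (Grm8 and Gria2 among them) and 3 in striatum (Grm7, Grm8 and Grik1), and 0 were higher. Of all genes 2.93% were called in this cortical step (1.48% lower, 1.46% higher) and 1.53% in the striatal one (0.813% lower, 0.718% higher). From 8 to 24 h, Grm8 was higher in cortex, and in striatum Gabrd, Glra1, Gabbr1 and Glrb were lower. Here 8.11% of all genes were called in cortex (4.12% lower, 3.99% higher) and 7.87% in striatum (3.19% lower, 4.69% higher). These steps share arrays with the comparisons against sham and are not independent of them. Grm8 from 2 to 8 h was -0.60 ± 0.14 in cortex (adjusted p = 0.0177), lost without cortex 2 h replicate 1 (0.0512) or 2 (0.0588) or 8 h replicate 3 (0.0531). In striatum it was -0.57 ± 0.14 (0.0321), lost without 2 h replicate 1 (0.0925), 2 (0.0693), 3 (0.0655) or 4 (0.0641) or 8 h replicate 1 (0.0584) or 3 (0.0896), and with each region fitted alone (0.0503). Grik1 in striatum was -0.53 ± 0.13 (adjusted p = 0.0376), lost without 2 h replicate 1 (0.137), 2 (0.0925) or 3 (0.0722) or 8 h replicate 3 (0.0727) or 4 (0.102), and with each region fitted alone (0.0758).

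Gria2 in cortex from 2 to 8 h was -0.44 ± 0.12 (adjusted p = 0.0446), lost in 18 of 32 fits that left out 1 array (up to 0.115, without 2 h replicate 1) and under 4 of 9 other alternatives (up to 0.129, each region fitted alone). From 8 to 24 h in striatum, Gabrd was -0.64 ± 0.20 (adjusted p = 0.0486) and Glrb -0.37 ± 0.12 (0.0494), lost in 23 and 24 of 32 such fits (up to 0.208 and 0.175, without striatum 24 h replicate 2) and with array weights (0.191 and 0.119). Gabbr1 was -0.41 ± 0.12 (adjusted p = 0.0346), lost in 7 of 32 (up to 0.117, without 24 h replicate 2). The fitted signals of Glra1 were called lower (adjusted p = 0.0208), with an untested bound of at least 1.04-fold. That call was lost in 4 of 32 (up to 0.135, without 24 h replicate 2) and under 5 of 9 other alternatives (up to 0.123, array weights). The step from 8 to 24 h in striatum counted 0 called receptor genes without striatum 8 h replicate 1 or 24 h replicate 2. The steps from 2 to 8 h counted 0 in cortex without 2 h replicate 1 or 2 or 8 h replicate 3.

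Whether the response differed between regions was tested as striatum minus cortex at each time. By limma 0 of 23 receptor genes were called at 2 h and 0 at 8 h (2 and 2 at an unadjusted p under 0.05), where 0% of all genes were called in either. At 24 h 1 was called among 0.0633% of all genes (0.0422% lower and 0.0211% higher in the striatal response; 5 receptor genes at an unadjusted p under 0.05). That gene was Glra1, which cortex detected on 0 of 16 arrays, so no cortical response was measured and no regional difference is given. For the other genes called in 1 region alone, such as Glrb and Gabbr1, a difference between regions was not called.

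Genes that work with these receptors were counted beside them. Over all genes, 10.6% at 8 h and 17.6% at 24 h were lower in cortex and 12.8% and 16.2% in striatum. The counts at 24 h given here for inhibitory scaffold genes in striatum, for glutamate transport and metabolism in cortex and for glycine handling are near those shares. Of 13 measured excitatory scaffold and kinase genes, 5 fell and 0 rose in cortex at 8 h and 7 fell and 0 rose at 24 h, led there by Dlgap3 (-0.95, adjusted p = 2.08e-05), Dlg2 (-0.86, 2.43e-05) and Nlgn3 (-0.77, 0.000671), which build or span the postsynaptic density. In striatum 5 fell and 1 rose at 8 h and 7 fell and 0 rose at 24 h, among them Dlgap2 (-0.81, adjusted p = 0.000831). Of 13 AMPA receptor auxiliary and trafficking genes, 7 fell and 1 rose in cortex at 24 h. Nptx2, a secreted pentraxin that clusters AMPA receptors, was lowest (-1.33, adjusted p = 0.0178), followed by Cacng7, a transmembrane regulatory protein (-0.80, 0.00326), and Grip1, a scaffold that binds GluA2 (-0.78, 8.37e-05). Pick1, which binds GluA2 and takes it off the surface, rose in cortex at 24 h (0.54, adjusted p = 0.0049) and in striatum at 2 h (0.52, 0.0314), 8 h (0.59, 0.00375) and 24 h (0.51, 0.00837). In striatum at 24 h 3 auxiliary genes fell, led by Cacng4 (-1.02, adjusted p = 0.000586). Neto1, the 1 measured kainate receptor auxiliary gene, fell in cortex at 8 h (-0.63, adjusted p = 0.00401) and 24 h (-0.60, 0.00292) and in striatum at 8 h (-0.50, 0.0141).

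On the inhibitory side, 5 of 8 genes of GABA synthesis, transport and breakdown fell in striatum at 24 h and 0 rose. Among them were Slc6a11, the transporter GAT-3 (-1.0, adjusted p = 0.000352), Abat, which breaks GABA down (-0.52, 0.000167), Slc32a1, the vesicular transporter (-0.41, 0.00765), and Gad1, which makes GABA (-0.36, 0.0118), with the last of these and Slc32a1 named after their values were seen. In cortex at 24 h 3 fell and 1 rose, the betaine and GABA transporter Slc6a12 (0.99, adjusted p = 0.00543). Of 10 inhibitory scaffold genes, 3 fell in cortex and 2 in striatum at 24 h and 0 rose, with Trak1, which carries cargo along axons and binds GABA-A receptors, at -0.55 (adjusted p = 0.00019) and -0.60 (6.87e-05). Of 15 genes of glutamate transport and metabolism, 3 fell and 1 rose in cortex and 4 fell and 0 rose in striatum at 24 h. In striatum these included Slc17a8, a vesicular glutamate transporter (-0.97, adjusted p = 0.000279), and Glud1, glutamate dehydrogenase (-0.78, 1.03e-05). Of 6 genes of glycine and D-serine handling, 1 fell at 24 h in striatum (Dao, -1.03, adjusted p = 0.0115) and 0 were called in cortex at any time. Of the 2 chloride transporters, Slc12a2, which brings chloride into cells, fell in striatum at 24 h (-0.33, adjusted p = 0.0143).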

How the data were processed

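Right cortex and right striatum RNA from 32 samples in 8 groups of 4 was measured on Illumina MouseRef-8 V2 bead arrays. The deposited signals are bead intensities exported from BeadStudio without normalization, per the file headers. The deposited detection value, named so per the file headers, is a fraction between 0 and 1 that is near 1 for bright probes, and 1 minus it was used as the detection p. The authors also deposited a table of ratios whose sham mean is 1 for each probe, which served as an alternative. Its replicate numbers run in the opposite order to those of the signal tables.

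Samples were grouped by the labels. Signals were background-corrected with normexp, quantile-normalized and put on the log2 scale with neqc (limma 3.58.1, R 4.3.3, offset 16). Probes with detection p under 0.01 on at least 4 arrays were kept (12758), and the brightest probe stood for each gene (9475). One limma model with 8 groups gave moderated, two-sided tests, with Benjamini-Hochberg adjustment over 9475 genes and a threshold of 0.05. Every adjusted p printed without another name is from limma. Differences are log2 ± SE, with n = 4 in each group, a number that limits the precision. Gene names came from RefSeq by accession for 23876 probes, by symbol for 728 and by synonym for 709, and 384 kept the file's name.

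A group with 0 detected arrays has only a bound: its arrays were set at the higher of the lowest detected signal (log2 5.57 to 5.97) and their own. Adjusted p-values belong to the fitted signals and not to the bound. Named members are the called ones in each comparison and up to 3 more with the largest difference. Of the pathway lists, up to 3 called genes were to be named per comparison. More than 3 are named at 24 h for the AMPA auxiliary list in cortex and for GABA synthesis, transport and breakdown in striatum. The members and lists were chosen with earlier results of these data known. Alternatives were a block for the slide (array code), raw background, 75th percentile scaling, dropping the filter, requiring detection on all 4 arrays of a group, testing all detected probes, array weights, each region alone, the deposited ratios, and each array left out. The model was tested on simulated data for cortex 8 h against sham over 9475 genes: 95% of 100 genes changed by log2 1 and 58% of 100 changed by 0.5 were recovered, with a false share of 6.71%. Slide and position on it are read from the array code and its letter, which no label explains. Each group kept one letter, and letter and group cannot be told apart. Some genes of the receptor families and of the pathway lists are not reported here by name, and they remain in the counts and medians.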

Additional observations from a re-analysis of the deposited data

Results flagged for a closer look

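In groups of 4 arrays, 7 of 184 sets of values (23 genes in 8 groups) held an array that stood far from the other 3 by Dixon's test, where chance gives about 1 in 20, and 5 of them are given here. Gabrb2 in striatum sham read 7.05 on replicate 4 against 7.63 to 7.74. Glra1 in striatum at 2 h read 5.3 on replicate 2 against 5.79 to 5.85. Grik1 in striatum at 8 h read 7.67 on replicate 4 against 7.87 to 7.91. Grin1 read 7.6 on replicate 1 of striatum at 8 h against 6.58 to 6.73, and 5.75 on replicate 2 of striatum at 24 h against 6.78 to 6.94.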

How the results depend on the processing

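None of the 89 named differences, each on its gene's brightest probe, reversed its direction under the alternatives run. The difference of Grin1 from sham in cortex at 24 h, whose 2 probes differ in sign, is not among them. Its cortical step from 8 to 24 h (0.29, adjusted p = 0.479) is among them. On its other probe, 4210041, the arrays went the other way, at 6.17 to 6.74 at 8 h and 5.86 to 6.52 at 24 h. With the deposited ratios, the calls numbered 3 in cortex at 2 h, 10 at 8 h, 10 in striatum at 8 h, 19 at 24 h and 0 for the regional difference at 24 h. All of these calls against sham were lower, and over all genes the split in striatum at 24 h was 726 higher and 3495 lower against 1396 and 1535. The median of all genes with these ratios was -0.13, -0.09 and -0.09 for the 3 cortical times and -0.09, -0.13 and -0.18 for the striatal ones, beside receptor medians of -0.09, -0.31, -0.22, -0.15, -0.32 and -0.49. Array weights gave 1 call in cortex at 2 h, 5 in striatum at 2 h, 7 at 8 h, 4 from 8 to 24 h in cortex, 1 in that step in striatum and 1 for the regional difference at 2 h. All detected probes gave 7 calls in cortex at 8 h, 16 between sham regions and 2 from 8 to 24 h in striatum. Each region fitted alone gave 7 in striatum at 8 h, 1 from 2 to 8 h in either region and 2 from 8 to 24 h in striatum. That last step also gave 2 with scaling to the 75th percentile and 2 with no filter. With 1 array left out, counts against sham for the 3 times, in order, were 0 to 0, 2 to 4 and 4 to 8 (cortex) and 1 to 3, 1 to 6 and 4 to 11 (striatum). Between sham regions they were 8 to 11, and for the regional difference 0 to 0 at 2 and 8 h and 0 to 1 at 24 h. The steps from 2 to 8 h gave 0 to 3 in cortex and 1 to 3 in striatum, and those from 8 to 24 h gave 0 to 4 in each. With the slide as a replicate block the calls were 0, 4 and 6 in cortex and 3, 4 and 10 in striatum. Arrays with the same number correlated in their deviations from group means at -0.269 to 0.355 in cortex and -0.273 to 0.325 in striatum, with medians of 0.15 and 0.059 (-0.0559 and -0.0381 for different numbers). Between cortex and striatum of the same condition the median was 0.19 (-0.0488 to 0.561), against -0.067 for different numbers. Same-numbered arrays of a region share an array code, but not every pair was above 0.1 and no label gives a pairing, so they were not treated as paired. Of 47 called differences, 19 kept their call in every fit, and of 42 not called, 21 passed in at least 1 fit. Signals near background limit Glra1, Gabrg1, Grin2c and Grik4, and the cause of changes between settings was not tested.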
